A study of Mus musculus with 2 samples.

Results

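The laminins, nidogens and perlecan, the non-collagenous scaffold of basement membranes, were examined in mouse hearts collected 3 days after coronary ligation, a model of myocardial infarction (MI), or after sham surgery. The 10 genes were Lama2, Lama3, Lama4, Lama5, Lamb1, Lamb2, Lamc1, Nid1, Nid2 and Hspg2, taken by name from the annotation of the array, and every probe set that carried 1 of these symbols alone was used. This gave 21 of 45101 probe sets and 10 of 18193 named genes. In the infarct group the left anterior descending coronary artery of male C57BL/6J mice, 10 weeks old, was tied permanently, and in the sham group the same operation left the artery open. RNA of 3 hearts was mixed in each group and hybridised to 1 GeneChip Mouse Genome array. There were 2 arrays, no replicates and no test between the groups, so that each difference below compares 1 pool with 1 other pool. The labels name no genetic change in either group, and they give the heart as a whole without separating the infarct from the muscle around it.

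Laminins are heterotrimers of an α, a β and a γ chain that are secreted by nearly every cell bordering a basement membrane and that polymerise into a sheet. Nidogens bridge the γ1 chain of this sheet to the collagen IV network, and perlecan, a large heparan sulfate proteoglycan, ties both to growth factors and to cell surfaces. In the heart such a sheet surrounds each cardiomyocyte and underlies the endothelium, and loss of the α2 chain causes a congenital muscular dystrophy.

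Values are log2 RMA values as deposited, and differences are infarct minus sham. For each gene the probe set with the highest mean over both arrays stood for the gene, which was compared if that probe set reached the array median on at least 1 array, as was the case for 9 of the 10 genes and for 11961 genes in all. Lama3, the α chain of epithelial laminin, was below the median on both arrays with both of its probe sets and was left out of the counts. Between probe sets of a gene the log2 difference varied with an SD of 0.23 (5190 genes with at least 2 probe sets above the median), which covers the probes and not the mice. All 10 defining markers of cardiomyocytes listed for the check of the tissue were above the median on both arrays, with differences from -0.39 to 0.055 by the brightest probe set of each. Most of these lay near the upper end of the scale (Myh6 had 14.85 in the sham pool), and other bright probe sets of the same genes gave lower differences, down to -0.85 for Ttn, -0.67 for Myh6 and -0.66 for Ryr2.

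The family did not move as a block. Of the 9 genes compared, 5 were higher and 4 were lower in the infarct pool, and none differed by 2-fold. With the zero of the scale moved, as described at the end, the split was 4 to 5 (housekeeping genes) or 7 to 2 (hybridisation controls). The β1 chain and nidogen-2 were the highest and the β2 chain was the lowest. At a log2 difference of 1 or more, 3.73% of all compared genes were higher and 1.26% were lower, so that a count of 0 among 9 genes lies close to that background. At 0.5 or more (1.41-fold), 2 of the 9 were higher, against 12.7% of all compared genes, and 1 was lower, against 8.72%. Above 0 lay 5 of the 9, against 49.5% of all compared genes. The median of the 9 was 0.31 and that of all compared genes was 0, with a middle range of 5% to 95% from -0.65 to 0.89. No test of these counts or of the median was made. The same shares of all compared genes apply to the counts of other lists given below.

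**Figure D1:**
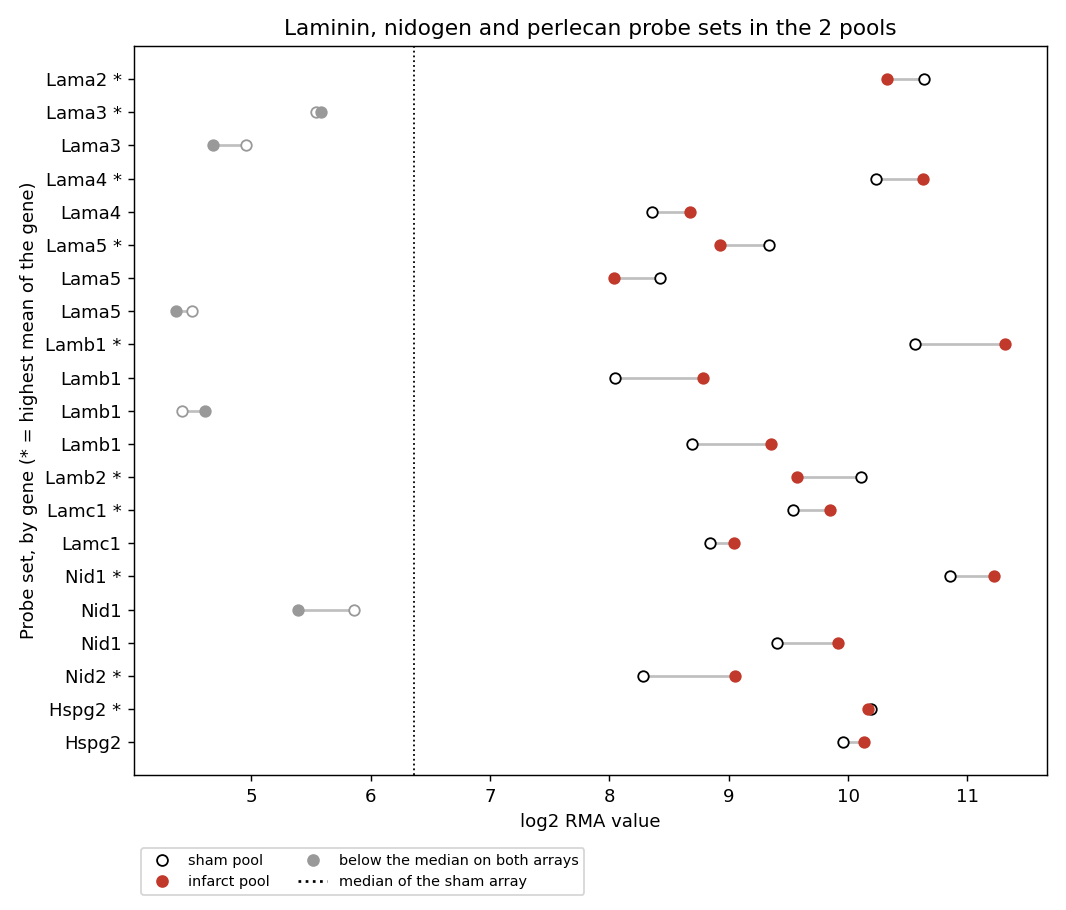
Log2 RMA value (horizontal axis) of each of the 21 probe sets after sham surgery (open circles) and after MI (filled circles), grouped by gene, with probe sets below the median of both arrays in grey and the probe set of highest mean marked by an asterisk. All 3 bright probe sets of Lamb1 had higher values after MI (differences of 0.66 to 0.75), whereas Lamb2 and both bright probe sets of Lama5 were lower.

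Among the β chains, Lamb1 and Lamb2 differed in opposite directions. Lamb1 encodes the β1 chain of the widespread laminins, and by the probe set 1424114_s_at the sham pool gave 10.56 and the infarct pool 11.32, a difference of 0.75 (1.68-fold). Its other bright probe sets gave 8.05 and 8.78 (difference 0.73) and 8.69 and 9.36 (difference 0.66). The infarct value was thus the higher by each of these 3 probe sets, and 6.97% of all compared genes had a larger difference than Lamb1. The remaining probe set was dim on both arrays, with 4.42 and 4.61. Lamb2 encodes the β2 chain, which is known from neuromuscular junctions, kidney glomeruli and the wall of blood vessels. Its single probe set 1416513_at gave 10.11 for sham and 9.57 for infarct, a difference of -0.54 (1.45-fold lower), and 7.67% of all compared genes lay below it. The difference of Lamb1 exceeded that of Lamb2 by 1.29, a 2.45-fold change of their ratio. This contrast was singled out after the values were seen. It does not depend on where the zero of the scale is set, since any shift of an array cancels in it.

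The α chains, which carry the globular domains that bind cells, also went both ways. Lama4, the α4 chain of endothelial and muscle basement membranes, had 10.24 (sham) and 10.63 (infarct) by the probe set 1424807_at, a difference of 0.39 (1.31-fold). Its other probe set gave 8.36 and 8.67, a difference of 0.32. Lama4 was thus higher in the infarct pool by both probe sets, by more than the SD between probe sets. By contrast, Lama2, the α2 chain of the cardiomyocyte basement membrane, had 10.63 and 10.33 by its only probe set 1426285_at, a difference of -0.31 (1.24-fold lower). Lama5, the α5 chain found in many epithelia and in mature blood vessels, had 9.34 and 8.92 by the probe set 1427009_at, a difference of -0.41 (1.33-fold lower). Its second bright probe set gave 8.43 and 8.04 (difference -0.39), and the last was dim, with 4.51 and 4.37. Relative to Lama2, Lama4 was higher in the infarct pool by 0.70, and relative to Lama5 by 0.80, contrasts that were again chosen after the values were seen. The epithelial chain gene Lama3 had 5.55 and 5.58 by one probe set and 4.96 and 4.68 by the other, all below the array median, and no fold is given for it.

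Lamc1 encodes the γ1 chain, the partner of the α and β chains above in most laminins of the heart. By the probe set 1423885_at the sham pool gave 9.54 and the infarct pool 9.85, a difference of 0.31 (1.24-fold). Its other probe set gave 8.84 and 9.05, a difference of 0.20, which is within the SD between probe sets. Lamc1 thus lay between the higher chains Lamb1 and Lama4 and the lower chains Lama2, Lama5 and Lamb2. Its difference was 0.44 below that of Lamb1 and 0.85 above that of Lamb2, and within 0.08 of that of Lama4.

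Both nidogen genes were higher in the infarct pool. Nid2 had the largest difference of the 9 genes, with 8.29 for sham and 9.05 for infarct by its only probe set 1423516_a_at, a difference of 0.77 (1.70-fold). Of all compared genes, 6.74% had a larger one. Nid1, the more widespread nidogen, had 10.85 and 11.22 by the probe set 1416808_at, a difference of 0.37 (1.29-fold), and 9.41 and 9.91 by another, a difference of 0.51. A further probe set of Nid1 was below the median on both arrays and went the other way, with 5.86 and 5.40. The difference of Nid2 exceeded that of Nid1 by 0.40 at the brightest probe set of Nid1 and by 0.26 at the other, so that the order of the nidogens is only a little larger than the spread between probe sets.

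Hspg2, which encodes the core protein of perlecan, was nearly the same in both pools. Its probe set 1418669_at gave 10.19 (sham) and 10.17 (infarct), a difference of -0.025, and the other gave 9.96 and 10.13, a difference of 0.18. Hspg2 was the only one of the 6 genes with at least 2 bright probe sets whose probe sets disagreed in sign, and both values were smaller than the SD between probe sets. Over the other 5 genes the bright probe sets of a gene shared their sign. Probe sets of a gene were read on the same pools, and how often they agree over all genes is not given here. Among the 16 bright probe sets of all members, 11 were higher and 5 were lower in the infarct pool. This counts some genes more than once (Lamb1 with 3 probe sets), whereas by gene the split was 5 to 4. The share over all bright probe sets is not given here.

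**Figure D2:**
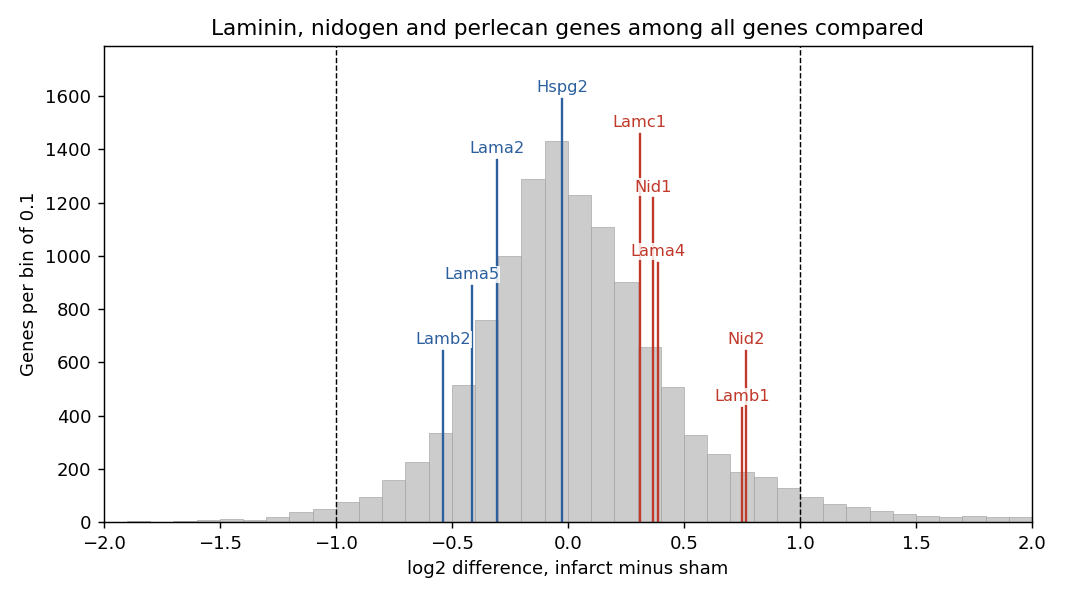
Number of genes (vertical axis) per bin of 0.1 in the log2 difference, infarct minus sham (horizontal axis), over the 11961 genes compared, with coloured lines at the 9 laminin, nidogen and perlecan genes and dashed lines at 2-fold. All 9 lines lay inside the 2-fold lines, from -0.54 (Lamb2) to 0.77 (Nid2), and the 52 genes beyond 2 in either direction lie outside the axis.

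Promoter regions are shown as a description only, and a link between sequence and the differences above was not tested. RefSeq windows (GRCm38.p6) from 250 bases before to 50 after a start were at hand for 6 of the 10 genes, Lama2, Lama5, Lamb1, Lamb2, Nid1 and Hspg2, of which Lamb1 and Nid1 had the highest differences and Lamb2 and Lama5 the lowest. The part before the outermost start of the gene is printed 5′ to 3′ for Lamb1, Lamb2, Lama5 and Nid1, with capitals for the GC box GGGCGG, to which Sp1 binds, and for the motif CATTCC, to which TEAD factors bind, on either strand.

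Lamb1, chr12:31265043-31265145, plus strand: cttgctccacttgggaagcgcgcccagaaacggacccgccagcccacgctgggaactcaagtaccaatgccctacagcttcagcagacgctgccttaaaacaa

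Lamb2, chr9:108479612-108479846, plus strand: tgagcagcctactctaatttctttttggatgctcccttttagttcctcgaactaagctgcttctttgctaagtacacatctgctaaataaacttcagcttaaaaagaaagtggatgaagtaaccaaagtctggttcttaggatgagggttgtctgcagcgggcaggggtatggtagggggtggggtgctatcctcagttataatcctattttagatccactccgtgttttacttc

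Lama5, chr2:180225905-180226109, minus strand: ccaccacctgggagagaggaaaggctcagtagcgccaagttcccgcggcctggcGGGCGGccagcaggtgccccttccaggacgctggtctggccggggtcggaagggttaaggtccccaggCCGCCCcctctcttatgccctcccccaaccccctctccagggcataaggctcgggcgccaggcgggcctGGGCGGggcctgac

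Nid1, chr13:13437352-13437601, plus strand: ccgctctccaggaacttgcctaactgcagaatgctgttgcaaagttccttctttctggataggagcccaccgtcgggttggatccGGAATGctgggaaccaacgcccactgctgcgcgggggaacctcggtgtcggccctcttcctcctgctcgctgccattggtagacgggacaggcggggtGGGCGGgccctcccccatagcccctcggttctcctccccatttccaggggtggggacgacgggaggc

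Over the whole window of 300 bases, Lamb2 had 44.0% G and C, 4 CpG dinucleotides and no GC box, and 19.2% of the 32851 RefSeq windows held less G and C. Lamb1 had 63.7%, 18 CpG dinucleotides and 2 GC boxes, both after the printed part. That part holds 103 of the 300 bases of Lamb1. In the printed parts neither Lamb1 nor Lamb2 had a GC box or the TEAD motif. Base composition was not split by the direction of the difference over the other genes: Lama5, lower in the infarct pool, had 72.7% and 4 GC boxes, of which 3 are in the printed part, while Nid1, higher, had 64.7% and 1. Hspg2 had 70.3% and 5 GC boxes, and Lama2 had 50.3% and 1. Only 1 base of the Lama2 window lies before the outermost start of that gene. Its base composition and motif counts therefore describe sequence after that start. A GC box is common, being present in 35.7% of all windows. The TEAD motif occurred in Nid1 alone among the 6 genes, against 14.7% of all windows. Neither TATAAA (13.6% of all windows) nor the AP-1 motif TGANTCA (7.81%) occurred in any of the 6. These are matches of letters and not measured binding.

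Genes next to the members on the chromosome differed from them in several cases. Beside Lamb1, on chromosome 12, the flanking protein-coding genes Fam110c and Dld were lower in the infarct pool, with differences of -0.25 and -0.48. Beside Nid1, on chromosome 13, Gpr137b and Lyst had 0.40 and 0.42, close to the 0.37 of Nid1. Beside Lamb2, on chromosome 9, Usp19 had -0.34 and Ccdc71 had -0.017. On chromosome 10, Fam229b beside Lama4 had -0.44 and Ptprk beside Lama2 had 0.24, each opposite in sign to the member, and Rtraf beside Nid2, on chromosome 14, had 0.011.

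The collagen IV network, to which nidogens link the laminin sheet, showed a wider split than the laminins. Col4a1 and Col4a2, which encode the α1 and α2 chains of the common network, had differences of 1.25 and 0.89, so that Col4a1 exceeded Lamb1 by 0.50 and Lamc1 by 0.94. The genes of the chains with a narrower distribution, Col4a3 (-0.81), Col4a4 (-0.74) and Col4a6 (-0.70), were lower in the infarct pool, and Col4a3 and Col4a6 were below the array median there. Col4a5 had 0.17. The other collagens of vascular basement membranes, Col15a1 (2.15-fold) and Col18a1 (1.97-fold), were higher. Of these 8 genes 2 were at least 2-fold higher and none was 2-fold lower, with a median of 0.53. These counts depended on the zero of the scale: with the zero at the housekeeping genes 0 were 2-fold higher and 3 were 2-fold lower (median 0.16), and with the zero at the hybridisation controls 4 were higher and 0 lower (median 0.85).

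Of the laminin chains outside the 10 genes that were analysed here, only Lamb3 was bright enough to be compared. Lamb3, whose product joins the Lama3 chain in epithelial laminin, had 8.10 for sham and 7.24 for infarct by 1 probe set, a difference of -0.87 (1.82-fold lower). The difference of Lamb3 was -1.23, past 2-fold, with the zero at the housekeeping genes and -0.55 with the zero at the hybridisation controls. Lama1 (4.10 and 4.13) and both probe sets of Lamc3 (5.95 and 5.73, 5.39 and 5.47) were below the median on both arrays. Lower values were thus found for the epithelial chain Lamb3 as well as for Lama5. Of the markers of epithelium and mesothelium, 6 of 8 lay below 0 with a median of -0.22. With the zero at the hybridisation controls 5 of 8 lay above 0, and with the zero at the housekeeping genes all 8 lay below. The mesothelial genes Upk3b and Msln had -1.33 and -0.97, and Krt19 and Wt1 had -0.63 and -0.25. Krt8 and Krt18 had -0.19 each, within the SD between probe sets. Krt5 had 0.0 and Epcam, the highest, had 0.12. The summed linear value of the 8 genes went from 1678 (sham) to 1139 (infarct). Their part in the values of Lamb3, Lama5 and the collagen IV genes was not tested.

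Other components of basement membranes were mixed too, with 6 of 14 compared genes above 0 and a median of -0.25 (0.067 with the zero at the hybridisation controls). Fbln2, which encodes fibulin-2, a ligand of nidogens and perlecan, was 2.49-fold higher (1.31), and Pxdn, the peroxidase that crosslinks collagen IV, had 0.96. At least 2-fold lower were Egflam (-1.36), which encodes pikachurin, a ligand of dystroglycan, and Fbln1 (-1.03), whose 3 probe sets ranged from -1.03 to -0.16. With the zero at the housekeeping genes no gene of this list was 2-fold higher, and with the zero at the hybridisation controls 3 were higher and 1 was lower.

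Genes of cell surface receptors for laminin and perlecan lay above 0 in 8 of 11 cases, with a median of 0.27 that became -0.094 with the zero at the housekeeping genes. Itgb1 and Itga6, which together encode a laminin-binding integrin, had differences of 0.70 and 0.57, and Itga7, the α partner of β1 in muscle, had 0.27. At least 2-fold higher were the syndecan gene Sdc1 (2.63-fold), whose 4 probe sets ranged from 0.37 upwards, and Itga1 (1.05), whose other probe set gave -0.11 (1 gene at 2-fold with the zero at the housekeeping genes, 3 with the zero at the hybridisation controls). Below 0 were Dag1 (-0.16), which encodes dystroglycan, a receptor of the α2 chain on muscle, Bcam (-0.27), which encodes a receptor of the α5 chain, and Itga3 (-0.052). All 8 compared genes of the dystrophin glycoprotein complex, which anchors dystroglycan, were below 0, with a median of -0.16. That median became 0.15 with the zero at the hybridisation controls and -0.53 with the zero at the housekeeping genes. Sgca (-0.70) was lowest and Dtna (-0.033) highest, and none was 2-fold lower, although the 3 bright probe sets of Dmd ran from -1.21 to 0.024. With the zero at the housekeeping genes 1 gene of this list was 2-fold lower.

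Enzymes that modify or cut these proteins are listed for comparison. Genes of dystroglycan glycosylation, which makes the sugar that laminin α2 binds, had a median of -0.056 (8 genes), with Gmppb at 0.77 and B4gat1 at -0.34. Genes of heparan sulfate synthesis, which builds the side chains of perlecan, had a median of 0.14 (11 genes), with Hs2st1 at 0.71 and B4galt7 at -0.13. No gene of either list differed by 2-fold, but with the zero at the hybridisation controls 1 gene of each was 2-fold higher. The median for dystroglycan glycosylation became 0.26 with that zero, and the one for heparan sulfate synthesis became -0.23 with the zero at the housekeeping genes. Of 10 compared protease genes 9 were above 0, against 49.5% of all compared genes, and 3 were at least 2-fold higher, against 3.73%. Those 3 were Mmp14 (1.37), Adamts1 (1.34) and Ctss (1.01), and the median of the list was 0.73. The count at 2-fold was 1 (median 0.37) with the zero at the housekeeping genes and 6 (median 1.05) with the zero at the hybridisation controls. The only one below 0 was Mmp2 (-0.31).

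**Figure D3:**
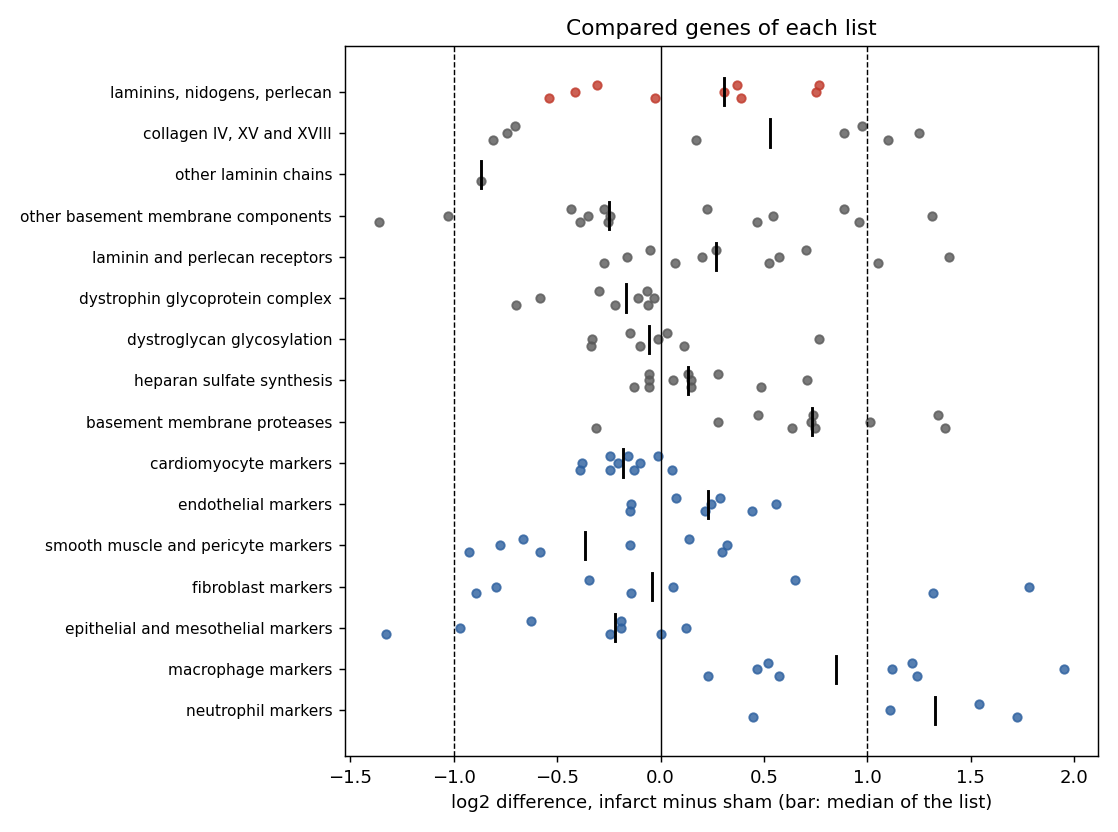
Log2 difference, infarct minus sham (horizontal axis), of each compared gene in the lists named on the vertical axis, 1 point per gene, with a bar at the median of the list, the 9 laminin, nidogen and perlecan genes in red, other basement membrane lists in grey and cell markers in blue. The red points ran from -0.54 to 0.77, inside the range of the collagens beneath them, which ran from -0.81 to 1.25.

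In whole hearts fewer cells of a type and less RNA per cell cannot be told apart, and the following marker values stand beside the members for that reason. Endothelial markers, from cells that produce the α4 and α5 chains, lay above 0 in 6 of 8 cases (median 0.23, or -0.14 with the zero at the housekeeping genes), from -0.15 (Tek) to 0.56 (Pecam1), and their summed linear value went from 6222 to 7161. Markers of smooth muscle and pericytes ran from -0.93 (Abcc9) to 0.32 (Pdgfrb), with 5 of 8 below 0 (median -0.37). All 8 lay below 0 with the zero at the housekeeping genes (median -0.73) and 4 with the zero at the hybridisation controls (median -0.047). Their sum went from 16745 to 12172. Rgs5 (12.95 and 12.36) and Abcc9 (12.09 and 11.17), the brightest of them in the sham pool, weighed most in the sham sum. Lamb2, with -0.54, lay inside the range of these markers, and so did Lama5 (-0.41), Lama2 (-0.31), Hspg2 (-0.025) and Lamc1 (0.31). The endothelial range held Lamc1, Hspg2, Lama4 (0.39) and Nid1 (0.37) but not Lama5. The wider fibroblast range given below held all 9 compared members. Lying inside a range thus does not tie a member to a cell type. Cardiomyocyte markers had a median of -0.18, with 9 of 10 below 0 (2 of 10 with the zero at the hybridisation controls), and their sum went from 228639 to 206627, beside -0.31 for Lama2. These are again the brightest probe sets, whose differences were smaller than those of other probe sets of Ttn, Myh6, Ryr2 and Tnnt2 (-0.85 to -0.60). Fibroblast markers had a median of -0.042 (8 genes), from -0.89 (Clec3b) to 1.78 (Meox1), and their sum, in which Gsn, the brightest of them (13.78 and 12.99), weighed most, went from 26252 to 25087. All 8 macrophage markers were above 0 (median 0.85), with sums of 12845 (sham) and 18936 (infarct), and so were all 4 compared neutrophil markers (median 1.33), with sums of 808 and 2202. Of the adipocyte markers 2 were compared, Adipoq (-1.52) and Retn (-0.14), and of the Schwann cell markers Sox10 (0.11) and Mbp (0.13). No marker in the endothelial, smooth muscle, cardiomyocyte, fibroblast or macrophage list was below the median of both arrays. The part of any of these cells in the values of the laminins, nidogens and perlecan was not tested.

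The sign of the smaller differences depended on the zero of the scale. The mean difference of 11 housekeeping genes was 0.36, with single genes from -0.44 to 1.12, and that of the 18 probe sets of the hybridisation controls, which detect added bacterial and phage transcripts, was -0.32. Centring on the housekeeping genes left Nid2 at 0.40, Lamb1 at 0.39, Lama4 at 0.025 and Nid1 at 0.0030 and moved Lamc1 to -0.056. Centring on the hybridisation controls moved Nid2 and Lamb1 to 1.08 and 1.07, past 2-fold, and Lama2 and Hspg2 to 0.011 and 0.29. Lama5 and Lamb2 stayed below 0 there, at -0.097 and -0.22. Thus Nid2, Lamb1, Lama4 and Nid1 were above 0 and Lamb2 and Lama5 were below 0 with each zero tried, though only barely for Lama4 and Nid1 with the zero at the housekeeping genes. With the poly-A controls, a further set of added transcripts, values moved by only -0.035.

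**Figure D4:**
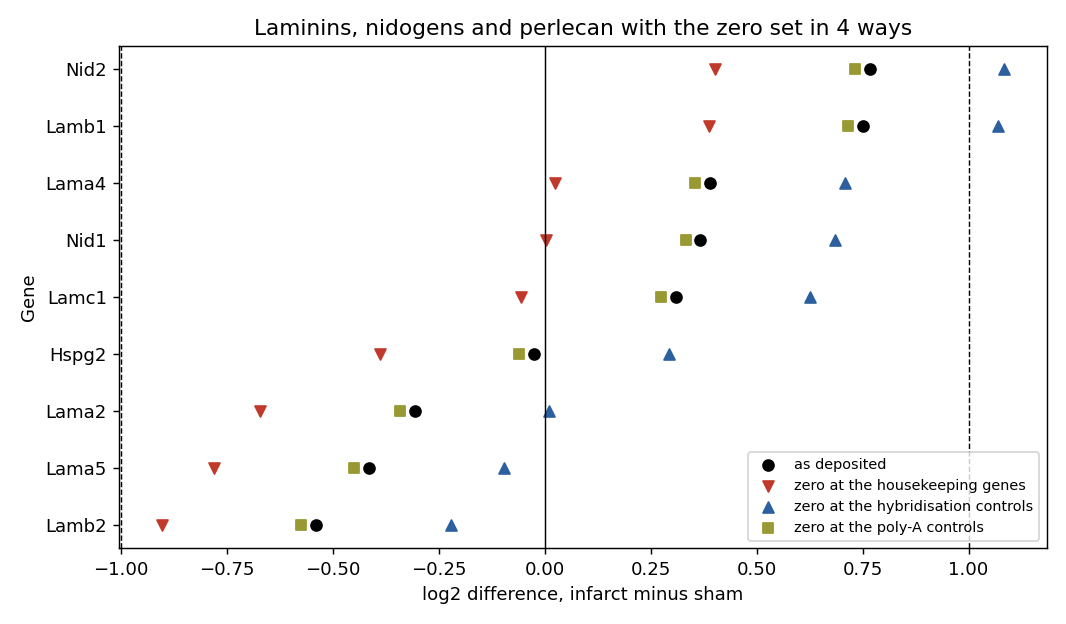
Log2 difference, infarct minus sham (horizontal axis), of the 9 compared genes with the zero as deposited (circles), at the mean of 11 housekeeping genes (downward triangles), of 18 hybridisation control probe sets (upward triangles) or of 27 poly-A control probe sets (squares). Each zero shifts all genes by the same amount, so that their order, with Lamb2 lowest and Nid2 highest, cannot change. Lamc1, Hspg2 and Lama2 change side of 0.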

How the data were processed

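The deposited values are log2 values: per the labels, the authors processed the arrays with RMA, which corrects background, normalizes arrays to each other and summarises each probe set. Which RMA software was used is not given in the sources used here, and the log2 scale follows from the range, 2.95 to 14.9. RMA gives arrays nearly the same distribution (medians 6.36 and 6.35), so that a change in total mRNA cannot be seen. No genome build goes with the array. The number of arrays limits the precision, and no p-value was computed.

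Probe sets were named through the array annotation (34945 with 1 symbol, 932 with several and 9160 with none). No probe set with several symbols listed a member. The zero of the scale, the normalization (quantile; loess with a span of 0.4), the choice of probe set, the filter and the threshold were varied. All 10 members are named, and of other lists the genes past 2-fold and the extremes; genes named for another reason were chosen after their values were seen. The members and lists were chosen with earlier results of these data known. The procedure was run on simulated data, with shifts larger than the difference of any member and noise smaller than the SD between probe sets. That run checks the code only and says nothing about differences as small as those of the members. Python 3.11.15, pandas 2.3.3, numpy 2.4.6 and statsmodels 0.14.6 were used.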

Additional observations from a re-analysis of the deposited data

How the results depend on the processing

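With 1 array per group no sample could be left out, and no paired analysis was possible because each group has 1 array and no test was made. The median of the 9 members (0.31) was -0.056 with the zero at the housekeeping genes and 0.63 with the zero at the hybridisation controls, settings that shift every gene by the same amount (-0.36 and 0.32). With the latter zero 2 members, Nid2 and Lamb1, were at least 2-fold higher in place of 0. At a threshold of 0.5 in place of 1, 2 were higher (the same genes) and 1 was lower (Lamb2). At the threshold of the study, 1.4, both counts were 0. Under the other settings (array medians, quantile, loess, poly-A controls, mean over probe sets, without probe sets ending in _x_at or _s_at, no filter, the 75th percentile as filter, and the mean over genes) the median or mean stayed from 0.14 to 0.32. Hspg2 also changed sign when its probe sets were averaged.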
